A study of Mus musculus with 10 samples.

Results

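Hmox1, Mt2, Slc30a1 and Mgst2 are 4 genes of the cell's defence against haem, metals and reactive compounds. They were found by name in the authors' 2 deposited tables of genotype differences, which name 251 probesets, and each name stands for 1 probeset. In the RefSeq annotation of build GRCm38.p6, Hmox1 spans 75093618 to 75100593 and Mt2 94172618 to 94173567 on chromosome 8, Slc30a1 spans 191906697 to 191913248 on chromosome 1, and Mgst2 spans 51636912 to 51682675 on chromosome 3. Hmox1, Mt2 and Slc30a1 come from the tumor cell table (130 rows) and Mgst2 from the tumor-associated macrophage (TAM) table (122 rows), so each gene was chosen by its measured genotype difference in that cell type. That difference is given below as a description, with no test. The label of the group names roles the genes are known for, and the arrays carry no measure of haem, metal or glutathione against which to check it.

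The study placed a luminescent, green fluorescent mouse mammary tumor line, PyMT-BO1-GFP-Luc (100000 cells), in mammary fat pads, the hosts being wild-type (WT) or b3KOM. b3KOM hosts lack integrin beta3 in the macrophage lineage, while the injected line is the same in both hosts and has no stated deletion. At day 10, tumor cells and CD206hi TAMs were sorted from the tumors and used for arrays without culture. TAMs were read on 3 arrays for each genotype and tumor cells on 2 arrays for each kind of host, 10 arrays in all. The promoter behind the deletion, the hosts' strain, age and sex, and whether an array holds 1 mouse or a pool are not given in the sources at hand, so the p-values measure the spread between these samples, which may be technical. No named probeset stands for Itgb3, which encodes the deleted integrin, so the deletion was not checked.

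Haem oxygenase 1, the product of Hmox1, opens the haem ring and releases iron, carbon monoxide and biliverdin, and macrophages that take up red cells or meet oxidative stress make much of it. Metallothioneins such as Mt2 bind zinc and copper through their many cysteines, and Slc30a1 (ZnT1) moves zinc out of the cell. Both Mt2 and Slc30a1 are switched on by the zinc-sensing factor MTF1, which binds metal response elements near their start sites. Mgst2 is a membrane-bound glutathione transferase that joins glutathione to reactive lipids and can also make leukotriene C4. Hmox1 is a classic target of NRF2, the factor that binds antioxidant response elements.

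Values are the authors' log2 values, where 1 unit is a doubling, and the median of the whole value table was 4.19. Array medians ran from 4.13 to 4.22, and Pearson's r across probesets was 0.981 to 0.993 for pairs of arrays within a cell type. The sorted populations were checked with macrophage markers, of which 15 of 22 are named. Their summed log2 level was 175.6 to 176.9 on the TAM arrays, 100.5 and 101.5 on tumor cells from WT hosts, and 109.4 and 111.2 on tumor cells from b3KOM hosts. These 15 are named only because the authors picked them for a genotype difference on these arrays. The step between hosts was thus set by that choice and is no independent check. The unnamed markers were not read. No marker of neutrophils, T and NK cells, B cells, dendritic cells, erythroid cells, epithelium, fibroblasts or endothelium on the fixed lists is named, so these cells were not checked. In these bulk populations, fewer cells of a type and less RNA per cell cannot be told apart.

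Hmox1 was the member with the largest difference between the cell types. Hmox1 stood at 11.26, 11.07 and 11.28 on the WT TAM arrays and at 11.66, 11.40 and 11.15 on the b3KOM TAM arrays. In tumor cells it stood at 6.36 and 5.85 from WT hosts and at 7.40 and 7.56 from b3KOM hosts. The lowest TAM array thus lay well above the highest tumor cell array. The TAM level exceeded the tumor cell level by 4.51 ± 0.13 (SE) on the log2 scale, 22.8-fold, with a limma adjusted p of 1.47e-08. An exact two-sided permutation test over the 10 arrays gave p = 0.0095, the smallest it can give for 6 arrays against 4.

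**Figure D1:**
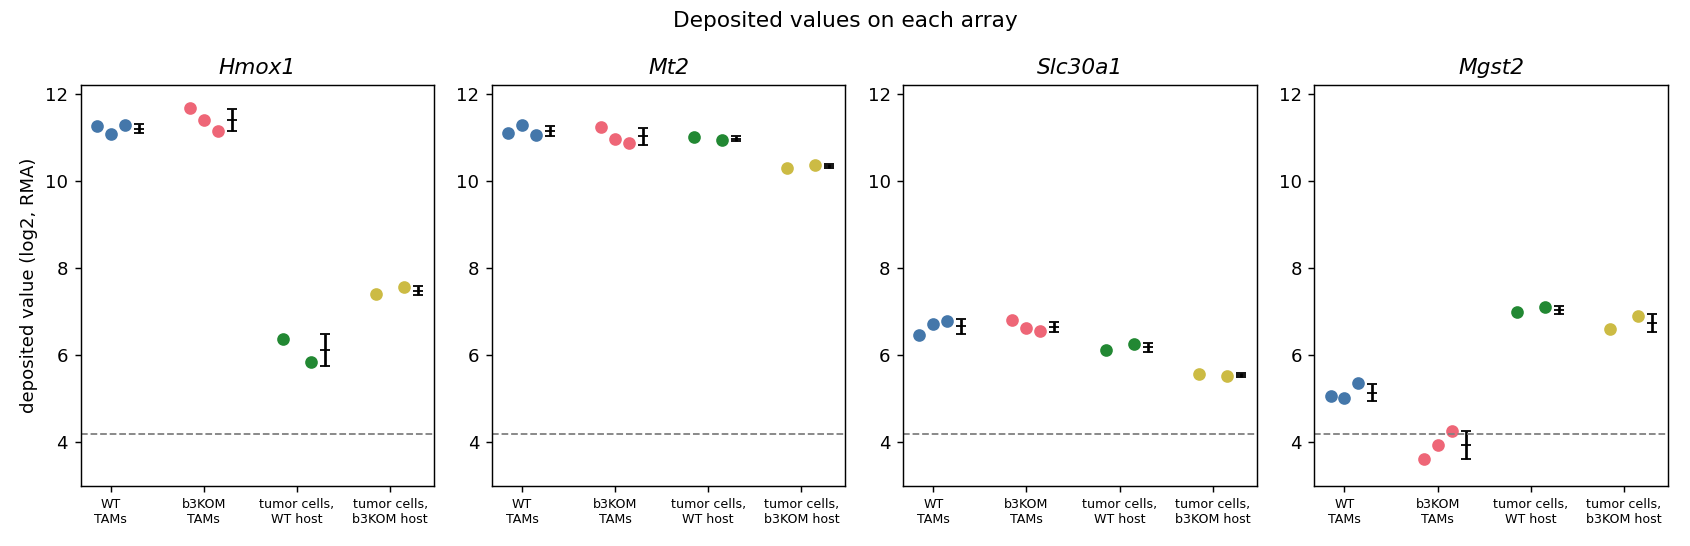
Deposited log2 value (vertical axis) of Hmox1, Mt2, Slc30a1 and Mgst2 on each of the 10 arrays, in 4 groups (horizontal axis); coloured points are arrays, the black mark and bar beside them the mean and SD, and the dashed line the median of the value table, 4.19. Hmox1 separates TAMs from tumor cells, Mt2 and Slc30a1 are lowest in tumor cells from b3KOM hosts, and Mgst2 is lowest in b3KOM TAMs.

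The zinc genes were also higher in TAMs, by far less. Slc30a1 measured 6.47, 6.71 and 6.79 in WT TAMs and 6.80, 6.61 and 6.56 in b3KOM TAMs. In tumor cells it measured 6.11 and 6.25 from WT hosts and 5.56 and 5.51 from b3KOM hosts. No TAM array fell as low as a tumor cell array, and the difference was 0.80 ± 0.09 (SE) with a limma adjusted p of 5.13e-05 and an exact permutation p of 0.0095.

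Mt2 was the closest to even between the cell types. It measured 11.10, 11.28 and 11.04 in WT TAMs and 11.24, 10.96 and 10.87 in b3KOM TAMs. In tumor cells it measured 11.00 and 10.93 from WT hosts and 10.30 and 10.37 from b3KOM hosts. Here the tumor cells from WT hosts lay inside the range of the b3KOM TAMs, while those from b3KOM hosts lay below every TAM array. The cell type difference was 0.43 ± 0.09 (SE) with a limma adjusted p of 0.00303. The exact permutation test gave p = 0.057 and so did not pass. Unlike the limma fit, it ignores the host genotype and does not borrow spread from other probesets. By host, the TAM level exceeded the tumor cell level by 0.17 ± 0.13 in WT and by 0.68 ± 0.13 in b3KOM, values that contain the difference for which Mt2 was chosen.

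Mgst2 ran the other way, with its higher level in tumor cells. It measured 6.98 and 7.11 in tumor cells from WT hosts and 6.60 and 6.89 in those from b3KOM hosts. In TAMs it measured 5.05, 5.01 and 5.36 in WT and 3.62, 3.93 and 4.25 in b3KOM. Each TAM array lay below each tumor cell array, and the difference of TAMs from tumor cells was -2.36 ± 0.14 (SE), with a limma adjusted p of 9.53e-07 and an exact permutation p of 0.0095. By host it was -1.90 ± 0.20 in WT and -2.81 ± 0.20 in b3KOM, values that contain the difference for which Mgst2 was chosen, and since b3KOM TAMs were near background these are no exact sizes.

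All 4 genes thus passed the limma test between cell types, 3 higher and 1 lower in TAMs, where 66.1% of the 20246 probesets tested were called (24.9% higher and 41.2% lower). The arrays did not overlap for 3 of the 4 genes, against 57.5% of all probesets, so neither share sets the 4 apart from the rest. The median difference of TAMs from tumor cells was 0.61 over the 4 genes and -0.144 over all probesets. Cyclic loess scaling moved that last median to 0.037 and the calls from 5050 higher and 8333 lower to 6763 and 6283. With it the 4 differences were 4.75 for Hmox1, 1.04 for Slc30a1, 0.61 for Mt2 and -2.18 for Mgst2, so each direction held under this rescaling. It was applied to values already normalized by RMA and cannot undo that step, so dependence on RMA was not tested. All 4 passed a filter that asked for a value above the table median on at least 2 arrays, and only Mgst2 had arrays below that median, 2 of the 3 b3KOM TAM arrays.

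In tumor cells, the comparison of hosts asks whether the same injected cells differ when the macrophages around them lack the integrin. Hmox1 averaged 6.11 ± 0.37 (SD, n = 2) in tumor cells from WT hosts and 7.48 ± 0.11 (SD, n = 2) in those from b3KOM hosts. The difference was 1.37 ± 0.21 (SE), 2.59-fold, the 15th highest of the 20246 probesets, and the authors' deposited table gives -1.37 for WT minus b3KOM. Both arrays from b3KOM hosts lay above both from WT hosts, a separation in that direction shown by 17.2% of all probesets. The WT-host arrays themselves were 6.36 and 5.85, and without 1 or the other of them the difference was 1.63 or 1.12.

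The macrophage markers lay in the same direction on these arrays. On both arrays from b3KOM hosts all 15 lay above both from WT hosts, with log2 differences of 0.45 to 0.88 and a median of 0.63, all below that of Hmox1. The authors' table chose these markers on these arrays too. On the linear scale Hmox1 gained 110 units, from 68.9 to 179, which is 4.34% of its TAM level of 2530, while the 15 markers gained 0.614% to 3.81% of theirs, with a median of 1.36%. Dim values hold a share of background, so these percentages are approximate. They carry no spread, and their order was not tested. Among 295 probesets over 4 log2 units higher in TAMs that neither authors' table lists, the median level was 4.12 and 4.21 with b3KOM hosts and 4.01 and 4.07 with WT hosts. The median difference of this set was 0.20, and 81.7% of it was higher with b3KOM hosts, against 50% of all probesets. The set's levels on the tumor cell arrays lay close to the table median of 4.19, near background, so the size is not exact. Leaving out listed probesets also left out those chosen for a difference. The part of TAM RNA in the Hmox1 difference was not tested.

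**Figure D2:**
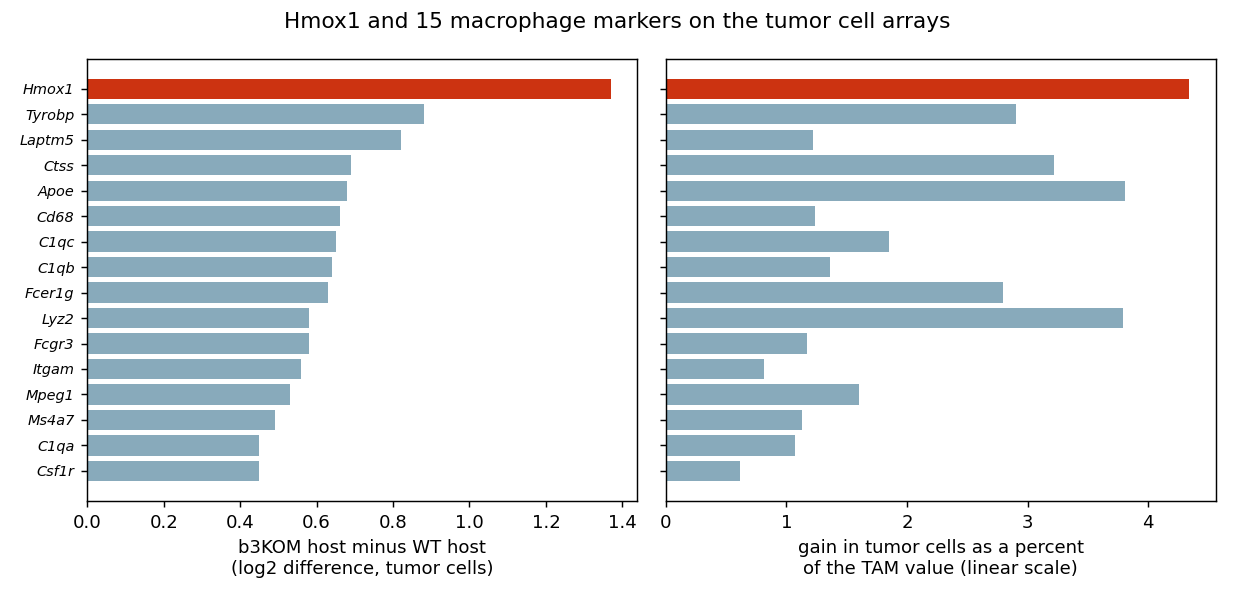
Hmox1 (red) and 15 named macrophage markers (blue) in tumor cells: the left axis gives the log2 difference of b3KOM hosts from WT hosts, and the right axis the gain in tumor cells as a percent of the TAM value on the linear scale, from means of log2 values (2 arrays a host, 6 TAM arrays). Hmox1 is at 1.37 and 4.34%, and the highest marker values are 0.88 and 3.81%. The percentages are approximate and carry no spread, so their order was not tested. Hmox1 and the markers were all chosen for differences on these arrays.

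Tumor cells from b3KOM hosts had the lower values of Mt2 and Slc30a1, by nearly the same amount. Mt2 averaged 10.97 ± 0.05 (SD, n = 2) with WT hosts and 10.34 ± 0.05 (SD, n = 2) with b3KOM hosts, a difference of -0.63 ± 0.14 (SE). Slc30a1 averaged 6.18 ± 0.10 and 5.54 ± 0.04 (SD, n = 2 each), a difference of -0.65 ± 0.14 (SE). Among 20246 probesets they ranked 301st and 280th from the bottom, and the arrays of both were separate in this direction, as were those of 16.6% of all probesets. These differences chose both genes. The macrophage markers were higher on the same arrays, as given above, and their part in these differences was not tested. Mt1, the close copy of Mt2, is not named, and whether the Mt2 probeset also reads Mt1 was not tested.

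Mt2 and Slc30a1 were both chosen for differences in tumor cells, so their lying lower together on those arrays was set by the choice. As both are known targets of MTF1, their promoter windows are shown. The windows run from 250 bases before to 50 after a start site given by RefSeq (build GRCm38.p6, plus strand). For Mt2 that site is the first base of the gene as annotated, and for Slc30a1 it lies 84 bases inside it, so distances for Slc30a1 count from the later site. Capitals mark the core of the metal response element, TGCACNC or TGCGCNC, on either strand, and a match on the minus strand reads as its reverse complement. Mt2 lies at chr8:94172368-94172667 and Slc30a1 at chr1:191906531-191906830.
Mt2: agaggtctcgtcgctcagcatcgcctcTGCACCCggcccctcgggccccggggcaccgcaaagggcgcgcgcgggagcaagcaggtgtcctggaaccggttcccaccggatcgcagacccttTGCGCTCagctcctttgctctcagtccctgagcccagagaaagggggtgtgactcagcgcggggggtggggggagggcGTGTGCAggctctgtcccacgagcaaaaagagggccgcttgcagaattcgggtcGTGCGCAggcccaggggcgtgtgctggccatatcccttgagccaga
Slc30a1: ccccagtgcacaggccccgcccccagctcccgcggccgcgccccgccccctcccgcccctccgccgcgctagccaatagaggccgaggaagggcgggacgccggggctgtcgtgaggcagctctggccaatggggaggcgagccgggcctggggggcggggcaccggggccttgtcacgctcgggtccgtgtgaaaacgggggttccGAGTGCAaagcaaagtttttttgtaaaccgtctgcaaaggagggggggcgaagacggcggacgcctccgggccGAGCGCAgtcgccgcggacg

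The Mt2 window held 4 matches to the metal response core and the Slc30a1 window 2. Of 32851 RefSeq promoter windows of this length, 0.517% held at least 4 and 7.11% at least 2, while 25.7% held at least 1. The matches nearest upstream of the site used began at base -50 in Mt2 and at -43 in Slc30a1, and each gene had 1 more after that site. As the Slc30a1 site lies 84 bases inside the annotated gene, its 2 matches are within that gene, so the positions in the 2 genes are not alike. The antioxidant response core TGACNNNGC, searched on both strands, occurred 1 time in each window, as in 12.4% of all windows, and no match of one motif overlapped a match of the other. The Mgst2 window at chr3:51660929-51661228 surrounds a start site 24267 bases inside the annotated gene and held neither core; the window at the first base of Mgst2 was not searched. A match is a run of letters, and the arrays do not measure binding.

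**Figure D3:**
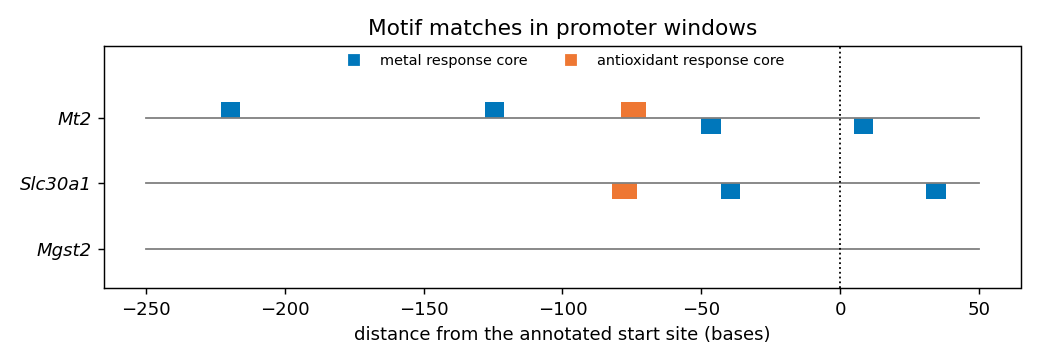
Matches to the metal response core (blue) and the antioxidant response core (orange) in the promoter windows of Mt2, Slc30a1 and Mgst2; the horizontal axis is the distance in bases from the RefSeq start site used (dotted line; inside the annotated gene for Slc30a1 and Mgst2), and boxes above or below a line are matches on the gene's own or the opposite strand. Mt2 has 4 metal response matches, Slc30a1 has 2 and Mgst2 has 0.

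In TAMs, where the integrin itself is deleted, the same 3 genes showed no difference that passed. WT TAMs averaged 11.20 ± 0.11 for Hmox1 and b3KOM TAMs 11.40 ± 0.25 (SD, n = 3 each), a difference of 0.20 ± 0.17 (SE) with a 95% interval of -0.19 to 0.58 and a limma adjusted p of 0.899. Mt2 differed by -0.11 ± 0.12 (interval -0.38 to 0.15, limma adjusted p of 0.923). Slc30a1 averaged 6.66 ± 0.17 in WT and 6.65 ± 0.12 in b3KOM (SD, n = 3 each), with an interval of -0.25 to 0.25 for the difference and a limma adjusted p of 1. The 2 genotypes overlapped for each of the 3 genes, whereas 8.80% of all probesets did not overlap, and 0 of 3 had an unadjusted p under 0.05, against 6.42% of all probesets, while 0.0148% of all probesets passed after adjustment. The intervals leave room for changes in TAMs up to those bounds. The authors' tables are headed as unique to a cell type, so a gene listed for tumor cells may also have been kept for not passing in TAMs, and the missing call is not independent of the choice.

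**Figure D4:**
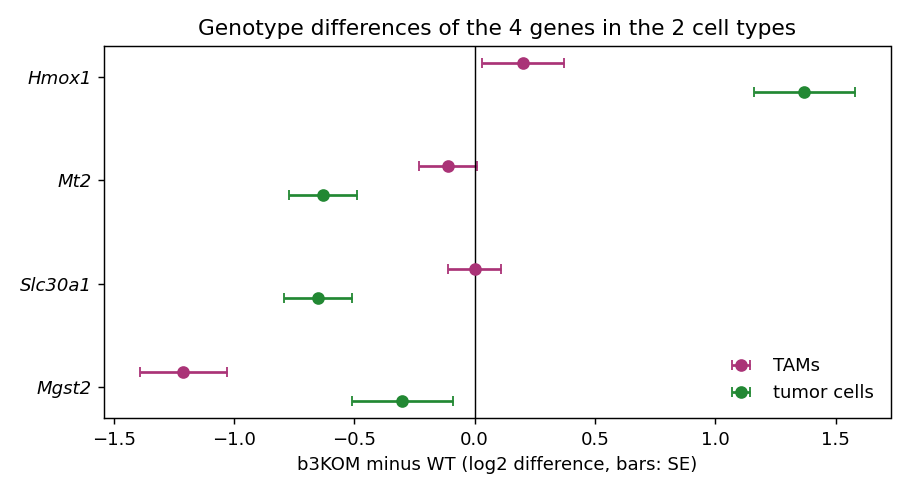
Log2 difference of b3KOM from WT (horizontal axis; points are limma estimates and bars their SE) for the 4 genes in TAMs (purple, 3 arrays a genotype) and tumor cells (green, 2 arrays a genotype). Hmox1, Mt2 and Slc30a1 were chosen for the tumor cell difference and Mgst2 for the TAM difference.

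Mgst2 was the member chosen for its TAM values. WT TAMs averaged 5.14 ± 0.20 and b3KOM TAMs 3.93 ± 0.32 (SD, n = 3 each). The difference of -1.21 ± 0.18 (SE) ranked 67th from the bottom among 20246 probesets, and in the authors' deposited table, where it is 1.22 for WT minus b3KOM, it is the second largest of 60 rows higher in WT. All 3 b3KOM arrays lay below all 3 WT arrays, as they did for 4.11% of all probesets. With the b3KOM mean under the table median of 4.19, near background, the size is not exact. Leaving out any 1 TAM array gave -1.36 to -1.05.

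Because Mgst2 is the member with its higher level in tumor cells, the level of other tumor cell transcripts on the TAM arrays is given beside it. The median of 277 probesets over 3 log2 units higher in tumor cells, listed in neither authors' table, was 4.44, 4.84 and 4.23 on the WT TAM arrays and 4.53, 4.47 and 4.80 on the b3KOM ones. Their median genotype difference in TAMs was 0.10, against 0.006 over all probesets. In b3KOM 34.7% of them were lower and 65.3% higher, where 51.7% of all probesets were higher. The array medians of the genotypes overlapped. The part of tumor cell RNA in the Mgst2 difference was not tested.

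In tumor cells Mgst2 averaged 7.04 ± 0.09 (SD, n = 2) with WT hosts and 6.74 ± 0.21 (SD, n = 2) with b3KOM hosts. The difference of -0.30 ± 0.21 (SE) had a 95% interval of -0.79 to 0.19 and a limma adjusted p of 1, with an unadjusted p of 0.198, where 2.48% of all probesets had an unadjusted p under 0.05. Both b3KOM-host arrays were below both WT-host arrays, as for 16.6% of all probesets. Limma called 0.00988% of all probesets in this comparison, which is 2 of them. Mgst2 comes from a table headed as unique to TAMs, so it may have been kept for not passing in tumor cells. The missing call is thus not independent of the choice.

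The genotype difference in TAMs minus that in tumor cells was -1.17 ± 0.27 (SE) for Hmox1, 0.51 ± 0.18 for Mt2, 0.64 ± 0.17 for Slc30a1 and -0.91 ± 0.28 for Mgst2. Each of these contains the difference that chose the gene, so they are not tested. Across the comparisons, the median b3KOM minus WT difference of the 4 genes was -0.06 in TAMs and -0.46 in tumor cells. Over all probesets it was 0.006 and 0. Both medians of the 4 genes contain differences that chose members, so a departure from all probesets was built in and was not tested. In tumor cells Hmox1 went the other way from the median, at 1.37. Within TAMs the correlations between the 3 genes of the tumor cell table rest on 6 arrays and carry no interval. Over the 6 TAM arrays, Pearson's r was 0.48 between Mt2 and Slc30a1, 0.20 between Hmox1 and Mt2 and 0.39 between Hmox1 and Slc30a1, values given as a description of arrays that share their labelling and scaling.

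The order of the 4 groups differed between the genes. For Hmox1 the order from high to low was b3KOM TAMs, WT TAMs, tumor cells from b3KOM hosts and tumor cells from WT hosts, and of the neighbours only the TAM groups overlapped. For Mt2 it was WT TAMs, b3KOM TAMs, tumor cells from WT hosts and tumor cells from b3KOM hosts, with overlap between the TAM groups and between b3KOM TAMs and tumor cells from WT hosts. Slc30a1 had the same order as Mt2, with overlap between the TAM groups. For Mgst2 the order was tumor cells from WT hosts, tumor cells from b3KOM hosts, WT TAMs and b3KOM TAMs, with no overlap between neighbours.

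The genes most like each member were sought among 182 other named genes, all of which the authors had picked for a genotype difference on these arrays. Likeness was Pearson's r over the 10 deviations of an array from the mean of its cell type, so that cell type itself did not set it. The genotype difference stays in these deviations. For genes of the same table, r thus contains the differences for which they were chosen. Nearest to Hmox1 were C1qa at 0.971, Lyz2 at 0.960 and C1qb at 0.954, which encode 2 complement C1q chains and lysozyme. Nearest to Slc30a1 was Ccl8, a chemokine that attracts monocytes, at 0.849, followed by L3mbtl at 0.823 and H2-M11 at 0.822. Nearest to Mt2 were Refbp2 at 0.843, H2-M11 at 0.816 and F2rl3, the thrombin receptor PAR4, at 0.788. By the same measure Mt2 and Slc30a1 had r = 0.86 with each other, a value that contains the tumor cell difference for which both were chosen. Over the TAM arrays alone r was 0.48, and whether the values differ was not tested. Nearest to Mgst2 were Ccdc52 at 0.960, Ublcp1 at 0.930 and Ccdc6 at 0.915, all from the TAM table. For raw levels over the 10 arrays the nearest to Hmox1 was Pf4, a chemokine of platelets and macrophages, at 0.998, over arrays that fall apart by cell type.

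Other genes of the same pathways are thinly covered. Of 164 genes on 4 lists (haem and iron handling, metallothionein and zinc or copper transport, glutathione and its transferases, and NRF2 and oxidative stress targets), 6 are named and reported, the 4 members and 2 more. The 2 are Ephx1, the microsomal epoxide hydrolase, and Hspa1l, a heat shock protein, both from the TAM table. In tumor cells, the comparison their table did not use, 0 of the 2 passed, at 0.08 ± 0.11 (SE) for Ephx1 and -0.16 ± 0.14 for Hspa1l, with limma adjusted p of 1 for each and unadjusted p of 0.463 and 0.300. Limma called 0.00988% of all probesets there, so 0 of 2 does not set them apart, and a table headed as unique to TAMs may have left out genes that passed in tumor cells. Between cell types Ephx1 was lower in TAMs than in tumor cells, by a difference of -1.56 ± 0.07 with a limma adjusted p of 1.99e-07. In that comparison 41.2% of all probesets were called lower. For Hspa1l the difference was -0.50 ± 0.09, given as a description with no test. Hspa1l passed the filter only through 2 tumor cell arrays, at 4.22 (b3KOM host) and 4.38 (WT host), so its direction was favoured by the filter. The arrays of Hspa1l overlapped between cell types, and by host its difference was -0.86 ± 0.13 in WT and -0.15 ± 0.13 in b3KOM, values that contain the TAM difference for which it was chosen. Hspa1l lay below the table median on all 6 TAM arrays, so its difference has no exact size. In the TAM contrast that chose them, the difference of b3KOM from WT was 0.55 for Hspa1l and -0.28 for Ephx1.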

How the data were processed

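Per the submitters' processing notes, the deposited log2 values were made with Affymetrix Expression Console by RMA, from 50 ng of RNA per sample, per the labels' protocols; the sources at hand do not name the array model. The table holds 35556 probesets on 10 arrays. The authors' 2 tables of selected genes give, per the file headers, a log fold change for WT vs b3KOM (read as log2), a mean log2 value, a statistic t (a score, not used) and a p-value; the largest deposited p-value is 0.00996. The deposited log2 fold change lay within 0.013 of the difference on the arrays for the 4 members, and was 0.36 and -0.43 for Ephx1 and Hspa1l against 0.28 and -0.55 on the arrays. Probesets were named only from those tables. limma 3.58.1 in R 4.3.3 fitted 1 mean per group to the 20246 probesets above 4.19 on at least 2 arrays (6 residual and 2.35 prior degrees of freedom), with Benjamini-Hochberg adjustment over all of them and a threshold of 0.05. The fit was tested on simulated data. The number of arrays limits the precision. RMA shrinks changes of dim probesets and, through quantile normalization, forces equal distributions on unlike cell types.

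The members and lists were chosen with earlier results of these data known. Named are the 4 members, the 3 genes most like each by correlation, and pathway genes that the tables name, of which some are not reported here. Promoter windows come from RefSeq (GRCm38.p6) and cover 3 of the 4 members. Alternatives were other filters, variance models, scalings, arrays of 1 cell type alone, and leaving out each array.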

Additional observations from a re-analysis of the deposited data

How the results depend on the processing

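The genotype differences that chose the members kept their direction under each of 17 alternatives, at 1.12 to 1.63 for Hmox1, -0.66 to -0.59 for Mt2 and -0.71 to -0.58 for Slc30a1 in tumor cells, and -1.36 to -1.05 for Mgst2 in TAMs. Between cell types the 4 limma calls held throughout, and the exact permutation test left Mt2 (0.43) at p = 0.057. In TAMs, Slc30a1 changed sign around 0 with array weights (0.03) and median centring (0), and with 1 array left out ran from -0.09 to 0.07. Calls over all probesets varied. In TAMs 3 became 9 with the stricter filter, 9 with an intensity trend and robust fitting, 0 on TAM arrays alone, and 0 to 5 with 1 array left out. In tumor cells 2 became 0 with no filter, 8 with the stricter filter, 17 with the trend, 30 with array weights, 0 on tumor cell arrays alone, and 0 to 2 with 1 array left out. The cause was not tested. Where 1 array is left out of the tumor cells, the lone array of its group is assumed to vary like the other groups. No paired analysis was possible because the groups share no replicate numbers in the titles. Signals below 4.19 are near background, which limits the sizes of the Mgst2 differences that involve b3KOM TAMs.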
